A study of Danio rerio with 4 samples.

Results

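The genes described here are the aryl hydrocarbon receptor gene ahr2, the receptor repressor gene ahrrb and the cytochrome P450 genes cyp1a, cyp1b1 and cyp1c1. They are 5 of the 36351 genes listed in count tables from zebrafish heart ventricles, where their identifiers are LL0000000498, LL0000000500, LL0000008547, LL0000008548 and LL0000008549. They were found by name, and they had been singled out for their levels across the 4 libraries and the cell classes, so the values below describe that choice and no test was made on them. The ventricles came from wild-type fish of the AB strain with no treatment named in the labels, and each library is 1 pool at 1 stage of coronary growth. There were 25 ventricles in the initiation pool (fish 10 mm long and 1.5 months old), 18 of 14 mm and 2 months (establishment), 12 of 18 mm and 2.5 months (expansion) and 5 of 28 mm and 8 months (maturation). Ventricles were dissociated with collagenase and TrypLE, and cells were captured with a 10x Chromium 3′ kit that counts RNA molecules by unique molecular identifiers (UMIs). Stage, age, body size, pool and handling cannot be told apart with 1 library per stage, although the labels give all 4 libraries the same batch.

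The aryl hydrocarbon receptor is a transcription factor that is held in the cytoplasm with Hsp90 and other chaperones until it binds a ligand, such as a dioxin, a polycyclic aromatic hydrocarbon or a tryptophan product. It then enters the nucleus, pairs with Arnt and binds the promoters of its targets, above all the cytochrome P450 genes of the Cyp1 family, whose enzymes oxidize the ligands. The receptor also raises its own brakes, the Ahr repressor and Tiparp. In zebrafish, ahr2 carries most of the response to dioxin, the heart is one of the most sensitive organs, and cyp1a in endothelium and endocardium is a common readout of exposure.

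Barcodes with at least 2500 UMIs and 600 genes were taken as cells, which left 6932, 6663, 12296 and 7612 cells in order of stage. The libraries hold between 115624753 and 161798583 UMIs, and the cells hold 82.2%, 70.6%, 64.3% and 31.2% of them. Classes were assigned from marker lists, and endothelial cells, which include the endocardium, numbered 1121, 1809, 6036 and 3669. The median depth of endothelial cells was 8408, 6771, 4927 and 5419 UMIs in the same order, and the share of mitochondrial UMIs in them was 1.06%, 1.62%, 2.98% and 6.94%. A total of 119 barcodes occur as cells in more than 1 library, and they make up 0.713% of the cells and 90 of 12635 endothelial cells. Levels are UMIs per 1000000 UMIs of a class in a library (CPM), with exact Poisson 95% intervals that cover counting error only. All 10 endothelial markers reached 10 CPM in this class. Levels of different genes are not ranked, although UMI counts of the enzyme genes are set beside each other within a class or within ambient RNA. Ambient RNA was measured in barcodes with at most 100 UMIs, and the globin UMIs in endothelial cells correspond to an ambient share of 0.573%, 0.916%, 1.48% and 3.89%. An ambient level is the make-up of these low barcodes and not the amount that ambient RNA adds to a class. The ambient share rests on globin alone. Cardiomyocyte markers, given below, stood in endothelial cells at a larger part of their ambient level in each library.

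The receptor gene ahr2 was detected in every cell class with at least 50 cells, and among these classes its level was highest in endothelial cells in the first 3 libraries. Endothelial ahr2 stood at 1748 CPM (95% interval 1725 to 1771) in the initiation library, followed in order of stage by 582 (571 to 593), 1581 (1569 to 1594) and 769.8 (759 to 781). Initiation and expansion were thus the high libraries and establishment was the lowest, 3.004-fold (2.935 to 3.08) below initiation. After each cell was thinned to 2500 UMIs, 91.4%, 65.3%, 88.1% and 72.0% of endothelial cells had a UMI of ahr2, which ranks the libraries as the levels do. Without thinning, the shares were 97.9%, 86.5%, 95.3% and 88.7%.

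Epicardial cells held ahr2 at 1119, 344, 1099 and 999.6 CPM in the 4 libraries. Establishment was the lowest library here too, the intervals of initiation and expansion overlap, and at maturation the epicardial interval of 939 to 1063 lies above the endothelial one. Pericytes had 938 at expansion and 917 at maturation, the 2 libraries with at least 50 pericytes, and fibroblasts had 323, 574 and 369 in the 3 later libraries. Immune and blood cells also held UMIs of the gene. Macrophages had 424 and thrombocytes 676 at maturation, where the ambient level was 85.5. Red blood cells had 256 at initiation, where 38.1% of the 3795 red cells had a UMI after thinning and the ambient level was 110. Cardiomyocytes had 292, 104, 179 and 73.7 CPM, the lowest of the classes with at least 50 cells at expansion and maturation. At expansion and maturation these cardiomyocyte levels lie below the ambient levels of 281 and 85.5.

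The repressor gene ahrrb was rare in endothelial cells and highest at initiation. Its endothelial level was 40.4 CPM (36.9 to 44.0) in the initiation library and 1.72 (1.16 to 2.45), 4.14 (3.52 to 4.83) and 3.27 (2.59 to 4.07) in the 3 later ones. These levels rest on 511, 30, 160 and 79 UMIs, and the intervals of expansion and maturation overlap. At initiation, all 511 UMIs came from 83 of 1121 endothelial cells, with up to 35 UMIs in 1 cell. The level at initiation was 23.5-fold (16.3 to 35.2) that at establishment, and 41.0-fold without the barcodes above the 95th percentile of UMIs. Without the initiation library, the largest difference among the other 3 was 2.41-fold, and without establishment it was 12.4-fold. After thinning, 3.48% of endothelial cells had a UMI at initiation, and between 0.276% and 0.596% in the later libraries, against 7.40%, 0.9397%, 1.26% and 1.01% without thinning.

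Epicardial cells carried ahrrb at 23.1, 4.12, 12.0 and 23.5 CPM, from 31, 7, 15 and 24 UMIs. At maturation the epicardial interval of 15.0 to 34.9 lies above the endothelial interval, although the UMIs came from 7 of 69 cells. Pericytes had 36.7 at expansion, from 18 UMIs in 2 cells, and 16.7 at maturation, from 8 UMIs in 5 cells. Cardiomyocytes had at most 9 UMIs of ahrrb in a library.

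The enzyme gene cyp1a had the widest range of the 5 genes among endothelial cells. Cyp1a oxidizes planar aromatic compounds and is the classical target of the receptor. Its endothelial level was 1321 CPM (1301 to 1341) in the first library, then 224 (217 to 232), 312 (306 to 317) and 27.1 (25.1 to 29.3) in order of stage. The initiation library stood far above the others and the maturation library far below, with a difference of 48.8-fold (45.1 to 52.8) between them. This fold pools endothelial cells whose marker groups, given below, made up different shares of the 2 libraries. Leaving out initiation narrowed the difference between the highest and the lowest library to 11.5-fold, and leaving out maturation to 5.89-fold. The ambient levels of cyp1a were 123, 39.7, 152 and 10.4 CPM.

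The spread of cyp1a between endothelial cells of 1 library was wide. At initiation, 578 of 1121 cells had a UMI, the median cell had 1 UMI, and 1 cell had 349. The 10% of cells with the most cyp1a held 55.6% of the UMIs at initiation, 91.5% and 92.1% in the next libraries, while all 655 UMIs of the maturation library came from 135 of 3669 cells. The share of cells with a UMI after thinning was 42.6% (39.7 to 45.6), 13.2% (11.6 to 14.8), 14.9% (14.0 to 15.85) and 1.935% (1.51 to 2.435), against 51.6%, 21.2%, 19.5% and 3.68% unthinned. In red blood cells, taken as a class that should lack it, the thinned share was 1.03% at initiation, 0.3155% at establishment and 3.27% at expansion. The median depth of red cells before thinning was 14976, 16380 and 11346 UMIs in these libraries. Cells in which cyp1a was found were thus a minority in each library after thinning.

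The genes cyp1b1 and cyp1c1 had the same order of libraries as cyp1a, with smaller folds between them. Cyp1b1 metabolizes steroids, retinoids and aromatic compounds, and Cyp1c1 is a fish enzyme of the same family. Endothelial cyp1b1 stood at 1406 CPM (1385 to 1427), 452.5 (442.5 to 462.5), 876 (867 to 885) and 319.8 (313 to 327) in the 4 libraries. Endothelial cyp1c1 stood at 808 (792 to 823), 312 (304 to 320), 583 (575 to 590.5) and 239 (233 to 245.5) in the same order. In both genes initiation was highest, followed by expansion, establishment and maturation, and no 2 of the intervals overlap. The differences between initiation and maturation were 4.40-fold (4.28 to 4.52) for cyp1b1 and 3.375-fold (3.27 to 3.49) for cyp1c1. Without initiation they were 2.74-fold and 2.44-fold, and without maturation the largest difference in cyp1b1 was 3.11-fold and in cyp1c1 2.59-fold.

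Shares of cells were also taken for these genes. After thinning, 63.7% of endothelial cells had a UMI of cyp1b1 at initiation and 69.5% at expansion, with 48.2% and 42.0% at establishment and maturation. For cyp1c1 the shares were 41.1%, 38.6%, 52.7% and 36.9%. Without thinning they were 78.1%, 72.5%, 82.9% and 62.2% for cyp1b1 and 55.2%, 61.0%, 68.7% and 55.7% for cyp1c1. In red blood cells the thinned shares were 0.580%, 0.820% and 5.88% for cyp1b1 and 0.474%, 0.946% and 6.54% for cyp1c1 in the first 3 libraries. No order of libraries is read from these shares. The 10% of endothelial cells with the most cyp1c1 held 65.7% of its UMIs at initiation and between 46.2% and 55.0% in the other libraries.

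**Figure D1:**
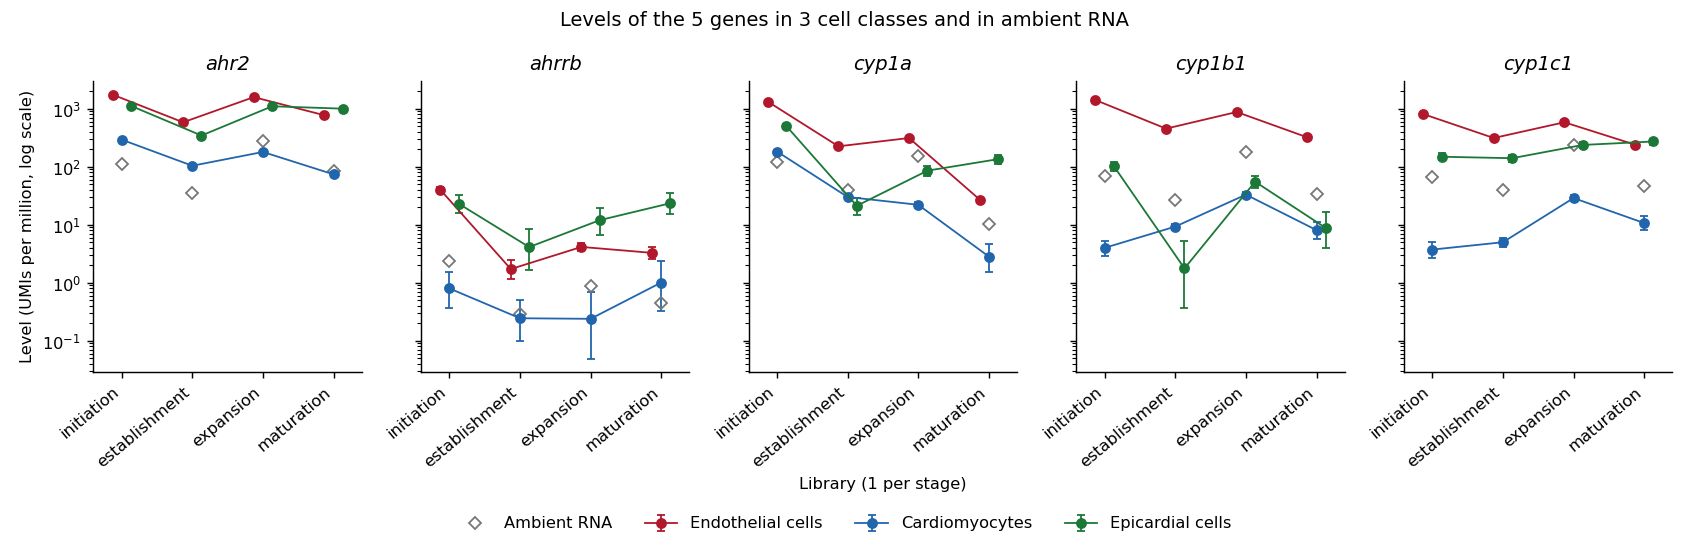
Levels of ahr2, ahrrb, cyp1a, cyp1b1 and cyp1c1 (CPM, log axis) in endothelial cells, cardiomyocytes and epicardial cells of each library, 1 library per stage, with ambient RNA as open diamonds. Bars are exact Poisson 95% intervals and lines only connect values of 1 class; endothelial cyp1a runs from 1321 at initiation to 27.1 at maturation, and cardiomyocyte cyp1b1 stays below the ambient level.

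**Figure D2:**
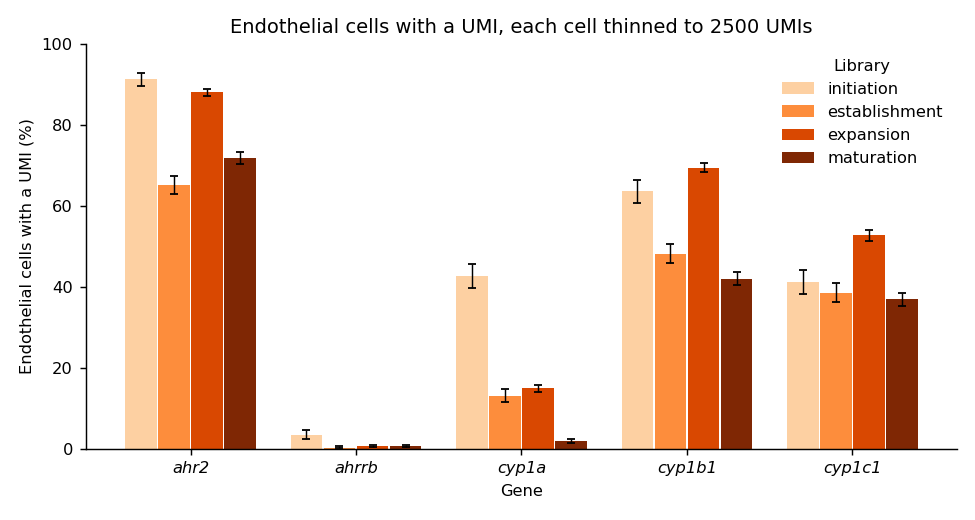
Share of endothelial cells (%) with at least 1 UMI of each gene after each cell was thinned to 2500 UMIs, by library. Bars start at 0 and error bars are exact binomial (Clopper-Pearson) 95% intervals; ahr2 was found in 65.3% to 91.4% of cells, cyp1a in 1.935% to 42.6% and ahrrb in at most 3.48%.

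To place these differences, all genes with a mean level of at least 10 CPM over the 2 libraries compared were ranked by fold in endothelial cells. Because the members had been chosen on these values, the counts are read only as a description. At establishment against initiation, 5 of 5 members were lower by 2-fold or more, as were 22.8% of 6592 genes, while 7.62% of genes and no member were higher. The repressor ahrrb passed the minimum level only through initiation, so that it had to be lower here and at maturation against initiation. Of the genes compared, 53 lay further down than cyp1a. The median gene was itself lower by 0.39 on the log2 scale, and relative to that median cyp1c1 was at -0.98, just inside 2-fold.

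At expansion against establishment, ahr2 was 2.72-fold higher (2.66 to 2.78), and it was the only one of the 4 members that passed the minimum level and 2-fold. The folds were 1.39 for cyp1a, 1.94 for cyp1b1 and 1.87 for cyp1c1, where 16.9% of 6537 genes were higher and 5.05% lower by 2-fold or more. The median gene was higher by 0.32 (log2), so that cyp1a stood only 0.16 above the median. The level of ahrrb was under the minimum in this comparison and in the next one.

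At maturation against expansion, 4 of the 4 members compared were lower by 2-fold or more, against 8.41% of 6849 genes, with 2.86% higher. Endothelial cyp1a was lower by 11.5-fold (10.6 to 12.5), and 6 genes of the 6849 had a larger fold downward. The folds downward were 2.74 for cyp1b1, 2.44 for cyp1c1 and 2.05 for ahr2, and relative to the median gene, at -0.21, the value for ahr2 was -0.83 (log2). Over the whole interval from initiation to maturation, 5 of 5 members were lower, as were 24.5% of 6920 genes, and 12.0% of genes were higher. On the log2 scale the differences were -5.61 for cyp1a, -3.63 for ahrrb, -2.14 for cyp1b1, -1.75 for cyp1c1 and -1.18 for ahr2. Only 7 genes lay below cyp1a, whereas 1316 lay below ahr2.

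**Figure D3:**
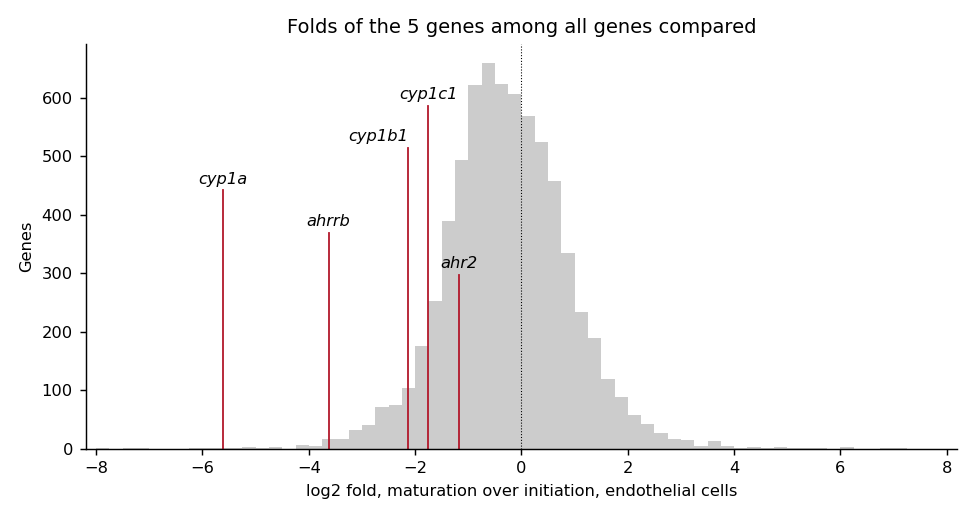
Histogram of log2 folds of 6920 genes in endothelial cells, maturation over initiation (x axis, log2 units; y axis, number of genes), with the 5 genes as lines. The lines differ in height only to separate the names; cyp1a at -5.61 and ahrrb at -3.63 lie in the left tail and ahr2 at -1.18 lies within the bulk of genes.

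Other measures of the endothelial cells moved with the libraries. A list of 10 immediate early and heat shock genes summed to 10142 CPM at initiation and to 41510, 29008 and 34719 in the later libraries. Within it, the small heat shock gene hspb1 stood at 1010, 12826, 8450 and 5006. At establishment against initiation, 5 of the 10 genes were higher by 2-fold or more and none lower, beside 7.62% and 22.8% of all genes. These 5 were jun, hsp70l, hsp70.1, hsp70.2 and hspb1, whereas the immediate early genes fosab, fosb, junba, egr1 and ier2b stayed within 2-fold. The cardiomyocyte marker list, with 8 of 8 genes detected, summed to 811, 3154, 3538 and 6395 in endothelial cells. In ambient RNA the same list summed to 7404, 35536, 29711 and 40415 CPM. The part of these measures, and of the mitochondrial share given above, in the levels of the members was not tested.

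The classes were then compared within each library. At initiation, the endothelial level exceeded that of the other classed cells, red cells left out, by 87.6-fold (77.0 to 100.1) for cyp1b1, 16.2-fold for cyp1c1, 10.3-fold for ahrrb, 6.84-fold for cyp1a and 4.50-fold for ahr2. All 5 members were thus at least 2-fold higher there, as were 35.0% of all genes compared. The repressor ahrrb, at 3.93 CPM in the other cells, passed the minimum level only through endothelial cells, so that it had to be higher. At establishment 4 of 4 members above the minimum level were higher, with 40.5% of all genes, and at expansion 4 of 4, with 33.3%. The same limit holds for cyp1b1 at establishment, where the other cells had 9.13 CPM. At maturation 3 of 4 were higher, with 25.5% of all genes, since cyp1a exceeded the other cells only 1.40-fold (1.19 to 1.65). Of the 194 cyp1a UMIs in those other cells, 138 came from 10 epicardial cells. Cardiomyocyte cyp1a stood at 2.82 CPM there, against 27.1 in endothelial cells. The mix of classes among the other cells differs between libraries, so these folds are not compared from library to library. The endothelial excess of cyp1b1 was 49.6-fold at establishment, 19.3-fold at expansion and 30.6-fold at maturation, the largest of the 5 genes in each library.

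In cardiomyocytes, cyp1a stood above the ambient level at initiation only, and the other enzymes stood below it in each library. Their cyp1a level was 182.5 CPM (175 to 191), 30.0 (28.1 to 32.1), 22.0 (19.5 to 24.8) and 2.82 (1.54 to 4.73) in order of stage. The initiation library was again highest, with 324 of 973 cardiomyocytes holding a UMI, or 19.0% (16.6 to 21.6) after thinning, and initiation exceeded maturation 64.8-fold. Cardiomyocyte cyp1b1 was 3.99, 9.28, 33.0 and 8.06 CPM, and cyp1c1 was 3.72, 4.99, 28.8 and 10.7. All of these lie below the ambient levels of the same library, which ran from 26.3 to 180 for cyp1b1 and from 39.5 to 234 for cyp1c1, and for both genes expansion was the highest library in cardiomyocytes and in ambient RNA.

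The ratio of cyp1a to cyp1b1 UMIs was set beside that of ambient RNA in each library. At initiation the ratio was 45.8 (34.1 to 63.0) in cardiomyocytes, 0.9398 (0.920 to 0.960) in endothelial cells, 1.44 (1.29 to 1.62) in red cells and 1.74 (1.57 to 1.93) in ambient RNA. At establishment it was 3.24 (2.82 to 3.73) in cardiomyocytes against 1.51 (1.29 to 1.76) in ambient RNA. At expansion the cardiomyocyte ratio of 0.667 (0.571 to 0.779) lay just below the ambient ratio of 0.846 (0.772 to 0.928), and at maturation 0.350 and 0.304 had overlapping intervals. The cardiomyocyte ratio thus lay above the ambient ratio at initiation and establishment and not at expansion or maturation.

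**Figure D4:**
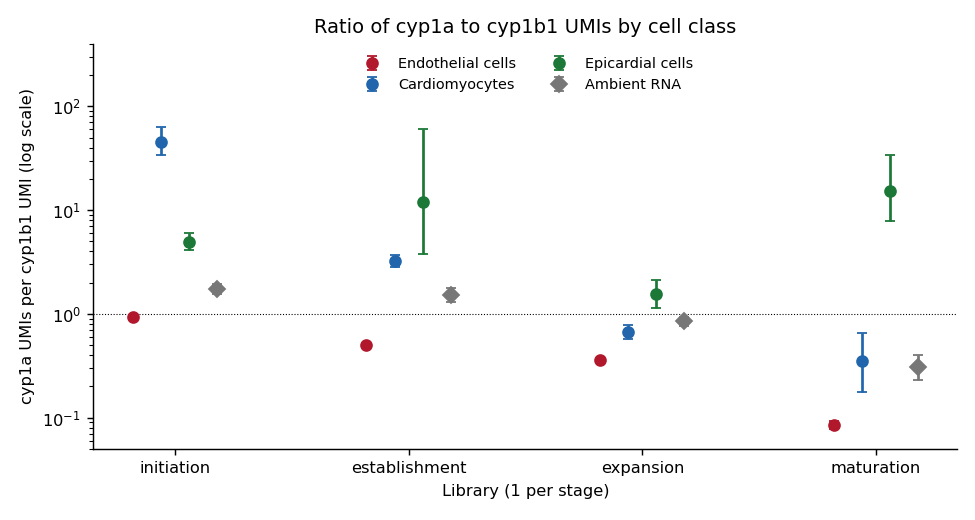
UMIs of cyp1a per UMI of cyp1b1 (log axis) in endothelial cells, cardiomyocytes, epicardial cells and ambient RNA of each library, with exact conditional binomial 95% intervals. The cardiomyocyte ratio is 45.8 at initiation and 0.350 at maturation, while the epicardial ratio at maturation is 15.3.

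Epicardial cells, a class of 82, 93, 126 and 69 cells, had a course of their own. Their cyp1a level was 505 CPM (467 to 544), 21.2 (14.8 to 29.3), 85.4 (70.0 to 103) and 135 (113 to 159) in the 4 libraries. At establishment and expansion these levels lie below the ambient levels of 39.7 and 152. At maturation epicardial cells exceeded the endothelial cyp1a level of 27.1, with a cyp1a to cyp1b1 ratio of 15.3 (7.85 to 34.2). These levels rest on few cells, since 19, 9, 9 and 10 cells held a UMI, and 1 cell held 51 of the 107 UMIs at expansion and 39 of the 138 at maturation. Epicardial cyp1b1 was 102, 1.76, 55.0 and 8.80 CPM, and at initiation 84 of its 137 UMIs came from 1 cell. From establishment on, it lay below the ambient levels of 26.3, 180 and 34.0. The class also depends on the gate, which asks for a lead over the next list. In epicardial cells the thrombocyte list summed to 1466, 1481, 1773 and 2232 CPM. Among the unused barcodes without a lead (430, 548, 1899 and 1051), the epicardial marker tcf21 was a leading gene at expansion and maturation. Their part in the epicardial course was not tested.

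The gene cyp1c1 was spread over more classes than cyp1b1. Epicardial cells held it at 148, 140, 237 and 272 CPM, with initiation and establishment indistinguishable by their intervals, and at maturation the epicardial interval of 241 to 305.5 overlapped the endothelial one. Smooth muscle cells had 255.5 at initiation and 304 at expansion, pericytes had 269 at expansion and 217 at maturation, and fibroblasts had 185, 183 and 157 in the 3 later libraries. After thinning, 37.0% of smooth muscle cells at initiation and 33.0% of pericytes at maturation had a UMI, against 0.617% and 1.17% of cardiomyocytes in those libraries. The ambient level of 234 at expansion is close to several of these values, whereas ambient levels of 67.1, 39.5 and 46.5 in the other libraries lie below them.

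In fibroblasts, smooth muscle cells and pericytes, the other enzymes had fewer UMIs than cyp1c1, by a margin that varied between libraries. In fibroblasts at maturation, 338 UMIs of cyp1c1 stood beside 16 of cyp1b1 and none of cyp1a in 364 cells, which allows a cyp1a level of up to 1.39 CPM at 3 counts. In smooth muscle cells at expansion, the counts were 300 for cyp1c1, 27 for cyp1b1 and 3 for cyp1a. The ratio of cyp1c1 to cyp1b1 was 21.1 (12.8 to 37.4) in fibroblasts at maturation and 11.1 (7.49 to 17.1) in smooth muscle cells at expansion. It was smaller at expansion in fibroblasts, at 2.28 (1.85 to 2.84), and in pericytes, at 1.5 (1.14 to 1.99). In endothelial cells the ratio stayed between 0.574 and 0.748 in all 4 libraries. The cyp1c1 counts carry a further limit. In RefSeq's GRCz12tu assembly cyp1c1 and its paralog cyp1c2 lie next to each other. Their sequences were not compared, and whether reads were lost or split between them was not tested. The table's cyp1c2 reached at most 10.1 CPM in endothelial cells. In that assembly, ahr1b and ahr2 are separated by 1 entry.

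Within endothelial cells, groups defined by marker genes were compared, taking cells with at least 2 UMIs of nppc or, for the sets of several markers, UMIs of at least 2 of them. Cells with the natriuretic peptide gene nppc had less cyp1a than all endothelial cells at initiation (916.5 against 1321 CPM). They had more at establishment (254 against 224), expansion (494 against 312) and maturation (72.8 against 27.1). Cells of the cpne9, slc6a4a and kcnq5a set had 1532, 226, 238 and 24.4, that is above the endothelial level at initiation and below it at expansion. The 250 cells outside all marker groups at initiation had more, at 1764 (1706 to 1823). Cells with both bmp3 and the Wnt antagonist gene frzb had the lowest cyp1c1 of the groups with at least 50 cells at 3 of the 4 libraries, with 92.0, 103 and 23.9 CPM after a value of 148 at initiation. Cells of the inhbab, ndnf and dhh set had 143 at initiation, and this interval of 118 to 173 overlaps that of the frzb and bmp3 group. Coronary markers defined at least 50 cells at expansion and maturation only, where cyp1c1 was 325 and 70.5 against 583 and 239 in all endothelial cells. A cell can belong to more than 1 of these groups. The make-up of the endothelial class differed between libraries. The nppc group held 464 of 1121 endothelial cells at initiation and 544 of 3669 at maturation. The cpne9, slc6a4a and kcnq5a set held 518 and 2771 of them. The part of this shift in the folds of all endothelial cells was not tested.

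The members were also set beside each other in single endothelial cells. After thinning, cyp1a was found in 478, 238, 901 and 71 endothelial cells. All other members had higher levels in these cells than in the other endothelial cells of their library. For cyp1c1 the fold was 4.12 (3.73 to 4.54) at initiation and 2.03, 2.15 and 1.84 in the later libraries. For cyp1b1 the folds were 1.65, 1.80, 1.77 and 2.25, and for ahr2 they were 1.53, 1.78, 1.66 and 1.64. For ahrrb the fold was 12.4 (6.85 to 24.8) at initiation, 5.49 (3.08 to 9.77) at expansion and 21.7 (8.76 to 49.5) at maturation. At establishment ahrrb had 2 UMIs in cells with cyp1a and 4 in the rest, and the fold of 3.30 has an interval from 0.299 to 23.0. Over 3179 genes with at least 20 CPM in the cells with cyp1a of each library, the median of the lowest fold over the libraries was 0.884. Cells are not replicates, and these are values of 4 libraries.

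**Figure D5:**
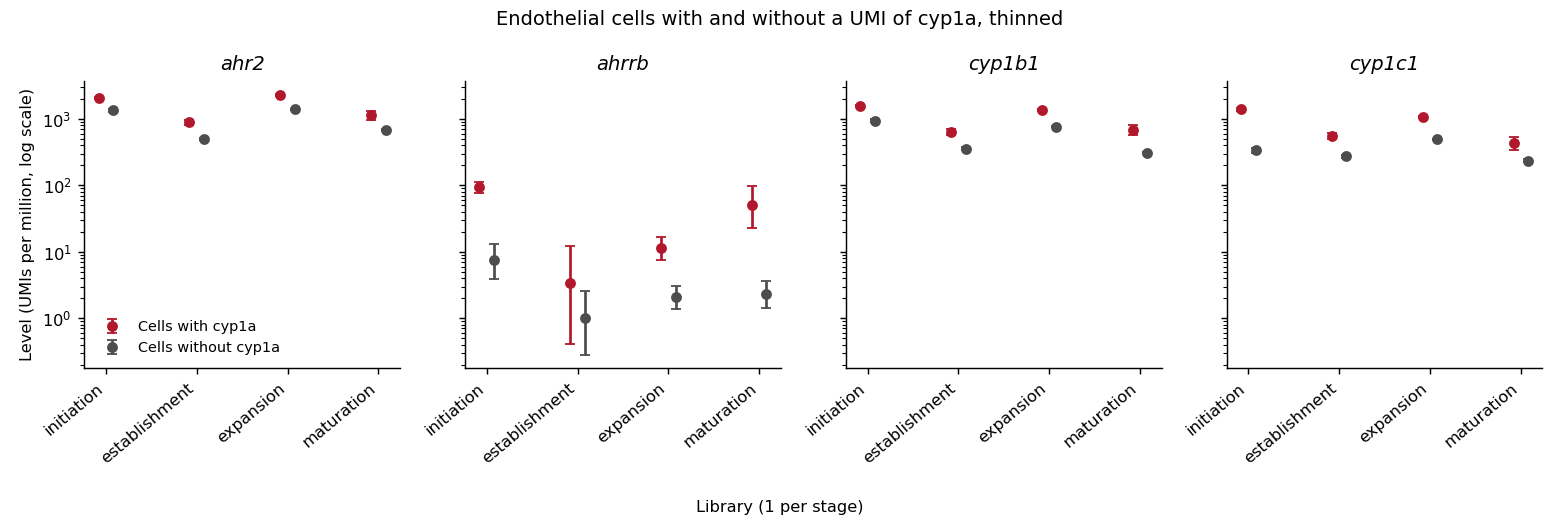
Levels of ahr2, ahrrb, cyp1b1 and cyp1c1 (CPM, log axis) in endothelial cells with and without a UMI of cyp1a, each cell thinned to 2500 UMIs, by library. Bars are exact Poisson 95% intervals; the cells with cyp1a lie higher in each panel and library, and only for ahrrb at establishment do the intervals overlap.

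By the same measure, the 10 genes with the largest lowest fold in cells with cyp1a were CU638702.1, s1pr1, dachc, cyb5a, rc3h2, adgra1a, atp7a, smtnb, CABZ01026153.1 and cxxc5a. Among them, cyb5a, which encodes the cytochrome b5 that passes electrons to P450 enzymes, had 3666 CPM in cells with cyp1a and 1603 in the rest at initiation. Its folds were 2.29 (2.18 to 2.40), 2.40, 2.40 and 5.13 (4.53 to 5.80) in the 4 libraries. The sphingosine phosphate receptor gene s1pr1 had folds of 2.48, 3.24, 2.35 and 11.05, the last from 29 UMIs in the 71 cells. The copper transporter gene atp7a had folds of 2.32, 2.27, 2.06 and 2.36. The minimum of 20 CPM was set on the cells with cyp1a only, the side on which these genes were then ranked as high. In the cells without cyp1a, CU638702.1, s1pr1, dachc, adgra1a, atp7a and smtnb were below 20 CPM in at least 1 library. There these genes passed only through the cells with cyp1a, so the list is a description.

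The 39 endothelial cells with ahrrb after thinning at initiation were mostly cells with cyp1a and cyp1c1. Of them, 89.7% (75.8 to 97.1) had cyp1a, 87.2% (72.6 to 95.7) had cyp1c1 and 43.6% (27.8 to 60.4) had cyp1b1, against 40.9%, 39.5% and 64.4% of the cells without ahrrb. Of the 511 unthinned UMIs, 386 lay in the 518 cells of the cpne9, slc6a4a and kcnq5a set and 37 in cells of the nppc group. The adgrg6, cldn5a and cpamd8 group held 68, and the 250 cells outside all marker groups held 105. The level in these 250 cells, 52.9 CPM (43.2 to 64.0), overlapped the 57.7 (52.1 to 63.8) of the cpne9, slc6a4a and kcnq5a set. Among endothelial cells with cyp1b1, 45.8% also had cyp1a at initiation, against 37.1% of those without it, and at expansion the shares were 17.2% and 9.88%. For cyp1c1, 40.3% of cells with cyp1b1 and 42.5% of those without it were positive at initiation. At expansion these shares were 55.5% and 46.3%.

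The other genes of the pathway were listed by role. Of the 8 receptors and partners, 7 passed the minimum level at establishment against initiation, and 2 of them, ahr1b and arnt, were lower by 2-fold or more, beside 22.8% of all genes, while none was higher. Endothelial ahr1b, another zebrafish receptor, was 142, 35.2, 55.8 and 42.6 CPM, which is the order of libraries of ahr2. The receptor gene ahr1a had at most 3 UMIs in any of the endothelial, cardiomyocyte and epicardial classes. The dimerization partner arnt was 22.2, 5.73, 15.4 and 11.9, and its paralog arnt2 was 65.2, 42.8, 76.9 and 83.4. At establishment against initiation, arnt passed the minimum level only through initiation, so that it had to be lower. The chaperone gene hsp90ab1 was 5162, 4107, 3954 and 2574. At maturation against initiation, 3 of the 7 (ahr1b, hsp90ab1 and ptges3b) were lower and none higher by 2-fold or more, beside 24.5% and 12.0% of all genes.

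Both further repressors stood highest at initiation in endothelial cells. The gene tiparp, which encodes an ADP-ribosylating brake on the receptor, was 1033 CPM (1015 to 1051), 334 (326 to 343), 619 (611.5 to 627) and 184 (178.5 to 189) in order of stage. This is the order of libraries of cyp1a, cyp1b1 and cyp1c1. The other repressor gene, ahrra, was 33.3, 6.41, 11.5 and 5.13, with ambient levels of 8.48, 4.54, 11.3 and 5.62. Its level was thus near the ambient level in the 3 later libraries. The part of ambient RNA in the endothelial level of ahrra was not tested. Both tiparp and ahrra were lower by 2-fold or more at establishment and at maturation against initiation, beside 22.8% and 24.5% of all genes. The gene ahrra passed the minimum level only through initiation, so that it had to be lower in both comparisons. In epicardial cells tiparp was 733, 201, 584 and 828, and its maturation level exceeded the endothelial one, as did those of cyp1a, ahrrb and ahr2.

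Of the 8 further genes listed as targets, gstp1 alone passed the minimum level. Whether these genes respond to the receptor in these cells was not tested. Endothelial gstp1, a glutathione transferase gene, was 155, 93.3, 46.4 and 58.5 CPM, lower by 2-fold or more at expansion against establishment and at maturation against initiation. The P450 gene cyp1c2 was 10.1, 2.58, 3.39 and 1.08, and its epicardial levels of 20.1, 32.9, 24.7 and 7.82 lay above the endothelial ones. The genes cyp1d1 and nqo1, which encodes a quinone reductase, had at most 2.46 CPM in endothelial cells. For foxq1a, foxq1b, gstp2 and sox9b the highest endothelial level was 0.395.

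A set of Nrf2 targets, which respond to oxidative stress, was given beside them. Of 6 genes, 5 passed the minimum level at maturation against initiation, and 4 (gclc, gclm, prdx1 and txnrd3) were lower by 2-fold or more with none higher, beside 24.5% and 12.0% of all genes. Among the 4, gclm (21.6 and 7.03 CPM at initiation and maturation) and prdx1 (18.9 and 4.06) passed the minimum level only through initiation. These 2 genes thus had to be lower, and they are part of the median given next. The list's median difference was -1.35 on the log2 scale, beside -2.14 for the 5 members, -0.90 for the receptors and partners and -0.30 for all genes. The members had been chosen on these levels, and ahrrb among them passed only through initiation. Their median is therefore not weighed against those of the lists. Endothelial hmox1a, a heme oxygenase gene, was 59.4, 119, 32.8 and 78.6 CPM, with establishment highest.

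Finally, the genes whose level profile was most like that of cyp1a were sought over the 24 groups of library and class with at least 50 cells. Among 10024 genes with at least 20 CPM in a group, the highest Pearson r of log2(level + 10) were those of adgra1a (0.83), cyb5a (0.82), si:dkey-182g1.6 (0.81), lpl (0.80) and CU638702.1 (0.80), followed by wbp1lb, leng9, cant1b, crlf1a and nacc2 (0.78 to 0.79). The members had lower values with cyp1a, at 0.68 for ahr2, 0.66 for cyp1b1, 0.57 for ahrrb and 0.46 for cyp1c1. The 24 groups share 4 libraries, so they are not independent. For cyp1b1, the closest were vwf, pde4bb and fgd5a (each 0.97), then XLOC_039817, rasip1, thpo, rflna, flt1, trim35-31 and dennd2db (0.93 to 0.95), among which vwf, rasip1 and flt1 are endothelial genes. The genes adgra1a, cyb5a and CU638702.1 were in both lists for cyp1a, the one over cell classes and the one over single endothelial cells. Both lists were ranked on cyp1a in the same libraries and share the endothelial cells, so this overlap is only a description.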

How the data were processed

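For each library the authors deposited 1 matrix of unnormalized UMI counts, genes by barcodes, and lists of gene and barcode names. The authors counted reads against GRCz11 with the Lawson annotation (v4.3.2). The submitters' notes name Cell Ranger 6.1.2 and Seurat 4, whereas the matrix headers give 7.1.0, and whether intronic reads were counted is not given in the sources used here. No normalized values were used. The 5 genes and all lists were chosen with earlier results of these data known.

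Cells were barcodes with at least 2500 UMIs and 600 genes, without a mitochondrial limit or a doublet caller. Each barcode's summed level of 12 marker lists (87 genes), plus 50, was divided by the median of the 50 highest barcodes with at least 3 markers. A class needed at least an eighth of that reference (-3 on the log2 scale), 3 markers and a lead of 2-fold over the next list. A first trial with the library mean as reference had left many expansion and maturation barcodes without a class, so this scoring was set after values had been seen. Barcodes without a lead or a class (3928 and 3687) were not used. The list for B cells gave no class.

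UMIs were summed per library and class. Intervals are exact Poisson, Clopper-Pearson or conditional binomial at 95%, and 0 counts allow 3. Shares were taken after thinning each cell to 2500 UMIs (seed 1). Genes were named by rule: the 5 genes, 34 pathway genes, the 10 nearest to cyp1a and to cyp1b1 in Pearson r, and the 10 with the largest lowest fold in cells with cyp1a. The values of 1 pathway gene are not reported here. With 1 library per stage no test was made. Of the 5 genes, 5 matched RefSeq's GRCz12tu table, which gave names and neighbours only. Intervals and fold calls were tested on simulated data. Python 3.11.15, numpy 2.4.6, scipy 1.17.1, pandas 2.3.3 and matplotlib 3.10.9 were used. Alternatives covered the barcode filter, mitochondrial limit, denominator, gate, ambient removal, cell weighting, shared and high-UMI barcodes and thinning.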

Additional observations from a re-analysis of the deposited data

Results flagged for a closer look

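Between consecutive stages, 3 differences of at least 1.5-fold in another class were opposite to one of at least 1.5-fold in endothelial cells, with each interval on its own side of 1. None of these differences between classes was tested, since there is 1 library per stage. Cardiomyocyte cyp1b1 was 2.33-fold higher at establishment than at initiation (9.28 and 3.99 CPM), whereas the endothelial ratio was 0.322, and both cardiomyocyte levels lie below the ambient levels of 26.3 and 70.4. Fibroblast ahrrb at expansion was 0.260 of its level at establishment, whereas the endothelial ratio was 2.41. The fibroblast levels rest on 7 and 10 UMIs from 3 cells each, with 5 and 6 of these UMIs in 1 cell. Epicardial cyp1a was 1.58-fold higher at maturation than at expansion, from 138 and 107 UMIs in 10 and 9 cells, whereas the endothelial ratio was 0.0869. The epicardial level at expansion, 85.4 CPM, lies below the ambient level of 152. Over the 5 pairs of libraries compared and with no minimum fold, 15 of 85 cases had such opposite intervals, among them cardiomyocyte cyp1a at expansion over establishment (0.733, endothelial 1.39) and epicardial cyp1c1 at maturation over initiation (1.83, endothelial 0.296).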

How the results depend on the processing

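No fold between the highest and the lowest endothelial library reversed under the alternatives tried, and 25 of 65 moved beyond counting error. With at least 5000 UMIs and 1000 genes, the folds were 44.5 for cyp1a, 4.17 for cyp1b1 and 3.26 for cyp1c1. With at most 12% mitochondrial UMIs they were 44.5 for cyp1a and 4.28 for cyp1b1. A denominator without mitochondrial and globin UMIs gave 4.14 for cyp1b1 and 3.18 for cyp1c1, and a stricter class gate gave 60.15 for cyp1a and 2.96 for cyp1c1. Without barcodes above the 95th percentile of UMIs, cyp1b1 was 3.97 and ahrrb 41.0. Removal of the ambient share gave 4.27 for cyp1b1. The mean over cells gave 3.9 for cyp1b1, 3.22 for cyp1c1 and 3.08 for ahr2.

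Leaving out each library in turn, which was added after seeing the data, gave 5.89 to 48.75 for cyp1a, 2.74 to 4.40 for cyp1b1, 2.44 to 3.375 for cyp1c1, 2.41 to 23.5 for ahrrb and 2.27 to 3.004 for ahr2. Of 180 endothelial levels 68 moved, of 28 counts of genes past 2-fold none moved by over 1.5 times, and all 20 shares moved without thinning. Of the 10 genes most like cyp1a, 7 remained with 1 added in place of 10 and 5 with Spearman's rho, and for cyp1b1 the numbers were 7 and 6. The cause of these moves was not tested. No paired analysis was possible because each stage has 1 library. Depth limits ahrrb most, with 30 endothelial UMIs at establishment.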
